A study of Mus musculus and Homo sapiens with 42 samples.

Results

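CCDC3, NPY1R, INSYN2B and MAP3K5 are 4 of the 29828 human genes listed for SNB19, a human glioblastoma cell line, and were chosen by the rise of their read counts in SNB19 when CHD9 was knocked down. CHD9 is a chromodomain helicase, a chromatin remodelling enzyme. RNA-seq read counts were available for SNB19 and for K562, a human chronic myelogenous leukemia line, each carrying a doxycycline-inducible hairpin against CHD9 (shRNA-CHD9#1 or shRNA-CHD9#2) or against luciferase (shRNA-Luc), with 2 libraries per hairpin and line. Hairpins were induced with 1 ug/ml doxycycline for 48 hours, the controls included. The orthologs Ccdc3, Npy1r, Insyn2b (annotated as Fam196b) and Map3k5 were followed by Chd9 genotype in 30 mouse libraries.

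The mouse groups were brain and liver of individual E15 embryos (2 Chd9-/- and 2 Chd9+/+ libraries per organ), early-passage fibroblasts (MEFs) from E13.5 embryos (4 Chd9-/- and 3 Chd9+/+), derived embryonic stem cells (ESCs, 3 of each genotype), and lymph node lymphomas of moribund EμMyc animals (3 Chd9+/+, 3 Chd9+/- and 3 Chd9-/-). In the EμMyc model a Myc transgene is driven in B cells by the immunoglobulin heavy chain enhancer, and the tumours of all genotypes carry it. The Chd9 allele was deleted in the germline by a Cre recombinase under the beta-actin promoter, in mice of FVB and 129P2 background. Total counts were 9518169 to 10476231 per SNB19 library, 8109941 to 9033846 per K562 library and 11729052 to 45422029 per mouse library. Levels are given as CPM, read counts scaled to a common library size, after TMM scaling, which removes differences in library size and composition. The labels number the human libraries of a hairpin as experiments 1 and 2 without saying whether these were separate cultures, so p-values measure only the spread between these samples, which may be technical.

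NPY1R encodes the Y1 receptor, a G protein-coupled receptor through which neuropeptide Y and peptide YY lower cAMP, and which is prominent in brain and in control of feeding and blood vessel tone. MAP3K5, also known as ASK1, is a kinase held inactive by reduced thioredoxin and released by oxidative stress or TNF receptor signaling, after which it activates the JNK and p38 kinases through their MAP2Ks. CCDC3 encodes a secreted coiled-coil protein made by endothelium and fat tissue that has been linked to TNF signaling and lipid storage. INSYN2B belongs to a small family named after the inhibitory synapse, where GABA and glycine receptors are anchored.

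The targeted gene was measured first. In SNB19, CHD9 stood at 635 and 649 CPM with shRNA-Luc, at 255 and 245 CPM with shRNA-CHD9#1, and at 213 and 336 CPM with shRNA-CHD9#2. All knockdown libraries were below both controls, and their mean was 40.9% of the control mean. In K562, CHD9 was at 329 and 243 CPM with shRNA-Luc and between 139 and 152 CPM in the 4 knockdown libraries, 51.3% of the control mean. The identity of the lines was checked with marker genes: the glioma markers NES and EGFR reached medians of 1535 and 356 CPM in SNB19, against 148 and 0 CPM in K562. The fetal globin genes HBG1 and HBG2, made by erythroid leukemia cells, had medians of 200.4 and 145 CPM in K562 and no count in SNB19. VIM, which is not specific to glia, was high in both lines.

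In SNB19, NPY1R was the receptor among the 4 genes and the most abundant of them. It was at 165 and 160 CPM with shRNA-Luc, at 650 and 663 CPM with shRNA-CHD9#1, and at 388 and 487 CPM with shRNA-CHD9#2. Every knockdown library lay above both control libraries, and the pooled knockdown mean of 547 ± 133 CPM (SD, n = 4) was 3.36 times the control mean of 163 ± 3.09 CPM (SD, n = 2). Here and below, n = 4 means 2 libraries of each of 2 hairpins, so pooled SDs and standard errors include any difference between hairpins.

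MAP3K5, the stress kinase, was at 38.1 and 37.2 CPM with shRNA-Luc. It was at 89.7 and 85.0 CPM with shRNA-CHD9#1 and at 94.3 and 89.9 CPM with shRNA-CHD9#2. The groups did not overlap, and the knockdown mean of 89.7 ± 3.82 CPM (SD, n = 4) was 2.38 times the control mean of 37.6 ± 0.702 CPM (SD, n = 2).

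CCDC3, the secreted protein, had the highest ratio of the 4. Its level was 26.2 and 25.9 CPM with shRNA-Luc, 278 and 270 CPM with shRNA-CHD9#1, and 275 and 260 CPM with shRNA-CHD9#2. The knockdown mean was 271 ± 7.91 CPM (SD, n = 4), 10.4 times the control mean of 26.1 ± 0.180 CPM (SD, n = 2).

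INSYN2B, the synaptic family member, was at 29.4 and 26.2 CPM with shRNA-Luc, at 72.7 and 76.8 CPM with shRNA-CHD9#1, and at 72.6 and 69.0 CPM with shRNA-CHD9#2. Again no knockdown library overlapped a control library, and the ratio of the means was 2.62.

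**Figure D1:**
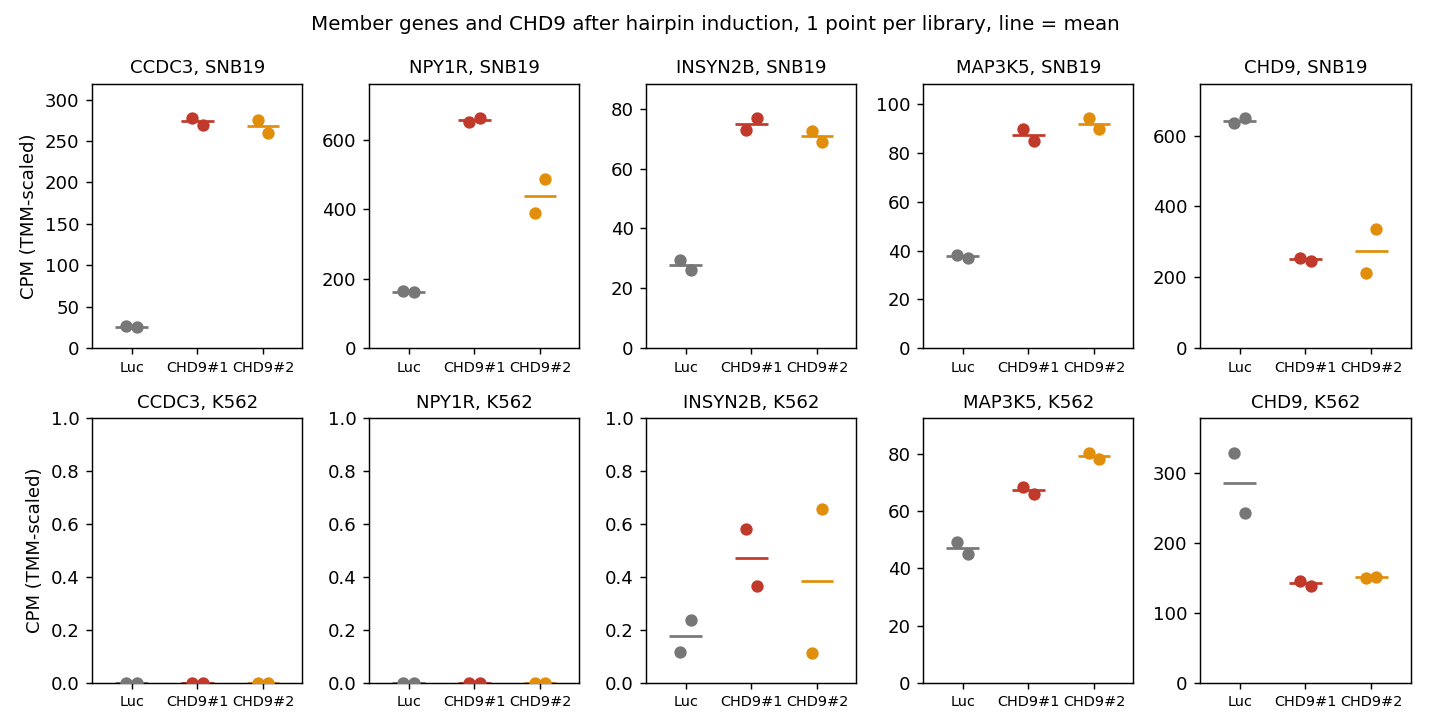
CPM (y axis, linear from 0, scaled per panel) of the 4 genes and CHD9 in SNB19 (upper row) and K562 (lower row) by hairpin (x axis), with 1 point per library and a line at the mean of 2. In SNB19 the 4 genes were higher with both CHD9 hairpins. In K562 CCDC3 and NPY1R had no count, INSYN2B stayed under 0.66 CPM and MAP3K5 lay between 66.1 and 80.3 CPM with the CHD9 hairpins against 44.8 and 49.2 CPM with shRNA-Luc.

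The SNB19 contrast chose these genes, so their fold changes in it are a description and carry no test. The separation of knockdown from control libraries also follows from this choice, and its share over all genes was not counted. With both hairpins as 1 group in edgeR, the log2 fold changes with standard errors were 3.38 ± 0.10 for CCDC3, 1.75 ± 0.21 for NPY1R, 1.39 ± 0.11 for INSYN2B and 1.25 ± 0.10 for MAP3K5. Of the 8758 genes tested, 135 (1.54%) had an adjusted p-value under 0.05 (edgeR quasi-likelihood test, Benjamini-Hochberg) together with a log2 fold change above 1, and the choice of members places all 4 of them there. By log2 fold change they held ranks 2 (CCDC3), 25 (NPY1R), 59 (INSYN2B) and 77 (MAP3K5) within those 135.

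Levels between genes were compared per kilobase of annotated exon. In the control libraries NPY1R was highest at 38.4 to 39.4 CPM per kb, followed by INSYN2B at 8.75 to 9.81 CPM per kb. CCDC3 at 7.04 to 7.11 CPM per kb and MAP3K5 at 7.01 to 7.19 CPM per kb overlapped. With the CHD9 hairpins the order was NPY1R (92.9 to 158 CPM per kb), CCDC3 (70.6 to 75.4), INSYN2B (23.0 to 25.6) and MAP3K5 (16.0 to 17.8), and no neighbouring ranges overlapped. CCDC3 thus moved from among the lowest of the 4 to the second place.

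The 2 hairpins were compared in a fit with 3 groups. The members were chosen on these same knockdown libraries, so their hairpin differences are also a description. NPY1R was higher with shRNA-CHD9#1 than with shRNA-CHD9#2 by 0.59 ± 0.11 on the log2 scale. Both libraries of the first hairpin lay above both of the second, and the share of genes that separate so was not counted. For CCDC3 the difference was 0.03 (95% interval -0.16 to 0.22), for INSYN2B 0.08 (-0.14 to 0.30) and for MAP3K5 -0.08 (-0.28 to 0.13). Over all genes tested, 7.18% differed between the hairpins at an adjusted p under 0.05 (edgeR quasi-likelihood test). CHD9 itself differed between the hairpins by -0.13 ± 0.17 and did not pass (adjusted p = 0.702, edgeR). Within shRNA-CHD9#2, the library with more CHD9 (336 against 213 CPM) was the one with more NPY1R (487 against 388 CPM). These are single libraries, and a relation between the 2 levels was not tested.

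The genes closest in pattern were found by the Pearson correlation of log2 CPM over the 6 SNB19 libraries, which share the contrast between hairpins and control. Among themselves, CCDC3, INSYN2B and MAP3K5 correlated at 0.991 to 0.997, and NPY1R with these at 0.930 to 0.959. All of them were chosen for a rise in these same libraries, so high correlations among them were given in advance. CCDC3 was most like KIRREL3 (r = 0.999), a cell adhesion molecule of the nephrin-like family, which went from 11.1 CPM in the controls to 28.7 CPM, then the gene ENSG00000034063 (r = 0.999) and MCMBP (r = 0.998), an MCM helicase-binding protein. NPY1R was close to the Wnt pathway regulator DACT1 (r = 0.997, 74.4 to 133 CPM), with ENSG00000255103 (r = 0.996) also among its closest 3. INSYN2B stood closest to the fucosyltransferase gene FUT8 (r = 0.997), the antisense RNA SVIL-AS1 (r = 0.996) and CCDC3 (r = 0.996). MAP3K5 stood closest to SAP18 (r = 0.998), the orphan nuclear receptor gene NR2F2 (r = 0.998) and KIRREL3 (r = 0.998). With 6 libraries that fall into controls and knockdowns, between 19 and 26 of 8757 genes exceeded a correlation of 0.99 with any 1 member.

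In K562, 1 of the 4 genes could be tested. CCDC3 and NPY1R had 0 counts in all 6 K562 libraries, which allows up to 0.332 to 0.370 CPM per library (3 counts of the total, counting error only). INSYN2B had 1 and 2 counts with shRNA-Luc, 5 and 3 with shRNA-CHD9#1, and 1 and 6 with shRNA-CHD9#2. These ranges overlap, and the gene did not pass the filter on low counts. No fold is given for these 3 genes.

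MAP3K5 was expressed in K562 at a control level close to that in SNB19, although the lines were scaled separately. It was at 49.2 and 44.8 CPM with shRNA-Luc, at 68.4 and 66.1 CPM with shRNA-CHD9#1, and at 80.3 and 78.1 CPM with shRNA-CHD9#2. All 4 knockdown libraries were above both controls, and the knockdown mean of 73.2 ± 7.01 CPM (SD, n = 4) was 1.56 times the control mean of 47.0 ± 3.09 CPM (SD, n = 2). The share of all K562 genes that separate in this way was not counted. MAP3K5 rose by 0.64 ± 0.12 on the log2 scale (95% interval 0.37 to 0.91, adjusted p = 0.00467, edgeR quasi-likelihood test). Of all genes tested in K562, 17.6% were likewise higher at an adjusted p under 0.05, and MAP3K5 ranked 955 of 9171 by p-value. It did not reach the log2 fold change of 1 that 12.9% of genes passed in either direction, and in SNB19 its log2 fold change was 1.25. Without shRNA-Luc replicate 2 the adjusted p was 0.0635, with a log2 fold change of 0.57.

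Each hairpin of K562 was also read alone. MAP3K5 was higher with shRNA-CHD9#1 by 0.52 ± 0.09 (adjusted p = 0.000135) and with shRNA-CHD9#2 by 0.75 ± 0.09 (adjusted p = 5.14e-06, edgeR, log2 scale). The hairpins differed by -0.24 ± 0.08 (adjusted p = 0.0450), a difference that 29.9% of all genes showed at this threshold. In SNB19 the corresponding values for MAP3K5 were 1.21 ± 0.10 and 1.29 ± 0.10, as a description.

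Genes at the same loci were followed next. In the human annotation, CCDC3 on chromosome 10 overlaps OPTN, which encodes the autophagy receptor optineurin, INSYN2B on chromosome 5 lies within DOCK2, a guanine nucleotide exchange factor of blood cells, and NPY1R on chromosome 4 overlaps NPY5R, the Y5 receptor gene. Each of these partners is on the opposite strand. The strand setting of the counting is not given in the sources used here, and whether exons of the partners overlap was not examined. Reads from a shared stretch, if any, may not be told apart, so the values of both genes are given.

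OPTN in SNB19 went from 100.2 ± 0.934 CPM (SD, n = 2) to 129 ± 11.1 CPM (SD, n = 4), and rose by 0.37 ± 0.11 on the log2 scale (adjusted p = 0.0450, edgeR). In K562 it went from 25.1 ± 1.64 to 105 ± 8.55 CPM, a rise of 2.07 ± 0.12 (adjusted p = 1.15e-05). CCDC3 had no count in those same K562 libraries, in which OPTN had 208 to 951 counts.

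DOCK2 rose in both lines, from 12.3 ± 0.689 to 23.8 ± 5.15 CPM in SNB19 (log2 fold change 0.95 ± 0.20, adjusted p = 0.0140) and from 77.5 ± 7.85 to 634 ± 58.1 CPM in K562 (3.03 ± 0.13, adjusted p = 1.97e-06, edgeR). INSYN2B had 1 to 6 counts in K562 while DOCK2 had 603 to 6277. NPY5R had 0 counts in every library of both lines.

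**Figure D2:**
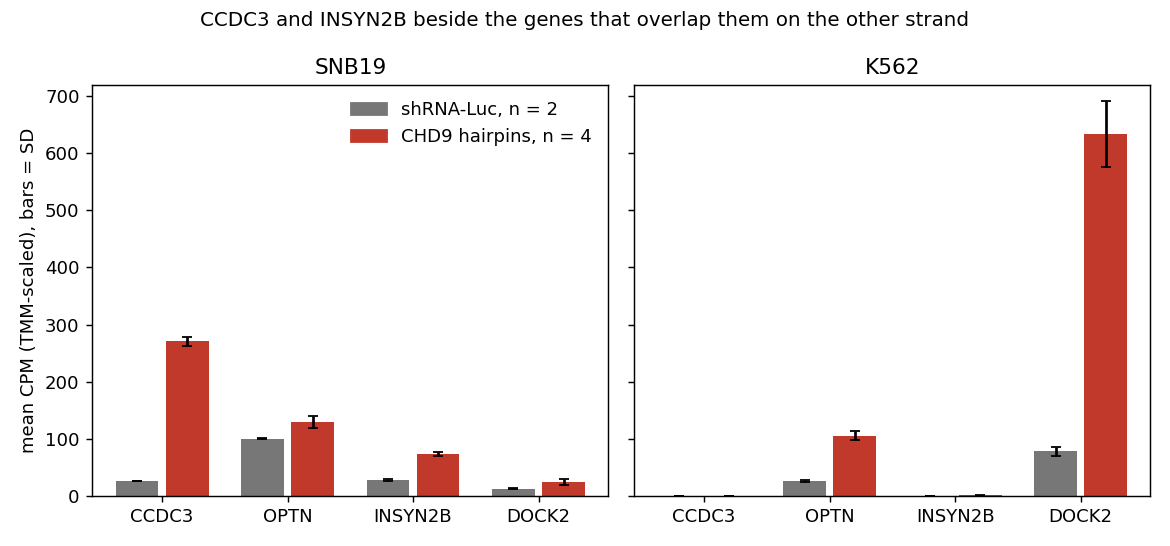
Mean CPM (y axis, linear from 0) of CCDC3, INSYN2B and the genes that overlap them on the opposite strand, OPTN and DOCK2, in SNB19 and K562, with gray bars for shRNA-Luc (n = 2), red bars for both CHD9 hairpins (n = 4) and error bars of 1 SD, not scaled by gene length. In SNB19, INSYN2B stands above DOCK2 with both kinds of hairpin, and CCDC3 stands below OPTN with shRNA-Luc and above it with the CHD9 hairpins. In K562, OPTN and DOCK2 have the higher bars, and CCDC3 and INSYN2B are at or near 0.

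Of 22 genes listed around the members, 13 had a row and 8 were tested in each line. In SNB19, 4 were higher and none lower, where 7% of all genes were higher and 7.4% lower at an adjusted p under 0.05. Besides OPTN and DOCK2 these were the ribonucleoprotein assembly factor gene NAF1 near NPY1R (0.89 ± 0.15, adjusted p = 0.00611) and CDC123 near CCDC3 (0.45 ± 0.10, adjusted p = 0.0197, edgeR, log2 scale). In K562, 3 were higher and 1 lower, where 17.6% of all genes were higher and 13.6% lower. MTFR2 near MAP3K5 was higher by 0.51 ± 0.13 (adjusted p = 0.0168) and TMA16 near NPY1R lower at -0.45 ± 0.11 (adjusted p = 0.0150), while NAF1 differed by -0.03 on the log2 scale and did not pass (adjusted p = 0.874). The median log2 fold change of the tested neighbours was 0.22 in SNB19 and 0.27 in K562, beside medians of 0.0015 and 0.0097 over all genes tested.

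Of 7 other genes listed for the neuropeptide Y system, 4 had a row and were measured. NPY2R had 4 to 9 counts per SNB19 library, NPY4R 0 to 5, and DPP4, the peptidase that trims neuropeptide Y, was the 1 gene tested in SNB19, with a log2 fold change of 0.22 ± 0.27 (adjusted p = 0.630, edgeR). In K562 none was tested, and none of the 4 had more than 1 count in a library. NPY4R shares its sequence with a near-identical copy, so its counts are uncertain.

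Of 30 genes listed for the pathway of MAP3K5, 16 had a row and were tested in both lines. In SNB19, 1 was higher, the p38 kinase gene MAPK11 (16.3 to 25.4 CPM, log2 fold change 0.63 ± 0.18, adjusted p = 0.0406), and none was lower, beside 7% and 7.4% of all genes tested. The next by p-value were the apoptosis inducer gene BCL2L11 (-0.42 ± 0.13, adjusted p = 0.0546) and the p38 activator gene MAP2K3 (0.54 ± 0.16, adjusted p = 0.0554, edgeR). The gene of the inhibitor thioredoxin, TXN, differed by 0.01 on the log2 scale and did not pass (adjusted p = 0.958). The median over the 16 genes was 0.16, beside 0.0015 over all genes.

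In K562, 3 of the same 16 genes were higher and 4 lower, beside 17.6% and 13.6% of all genes tested. The p38 kinase gene MAPK12 (-0.69 ± 0.10, adjusted p = 0.00126), the transcription factor gene ATF2 (-0.61 ± 0.11, adjusted p = 0.00343), MAP2K7 (-0.34 ± 0.08, adjusted p = 0.0124), which activates JNK, and TXN (-0.37 ± 0.11, adjusted p = 0.0329) were lower. MAP2K3 (0.48 ± 0.11, adjusted p = 0.0128), the TNF receptor gene TNFRSF1A (0.81 ± 0.19, adjusted p = 0.0130) and DAXX (0.72 ± 0.18, adjusted p = 0.0157, edgeR), an adaptor that binds MAP3K5, were higher. None of the 16 passed a log2 fold change of 1 in either line. Their median in K562 was 0.08, beside 0.0097 over all genes.

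Of the TNF and NF-kappaB response list, chosen for CCDC3, 9 of 22 genes had a row and 6 were tested in each line. In SNB19, 2 were higher: the subunit gene NFKB2 (53.7 to 79.3 CPM, log2 fold change 0.56 ± 0.10, adjusted p = 0.00641) and TNFAIP2 (446 to 645 CPM, 0.53 ± 0.10, adjusted p = 0.00904, edgeR). The cytokine gene IL6 differed by -0.45 ± 0.15 on the log2 scale and did not pass (adjusted p = 0.0704), and TNF itself had at most 2 counts. In K562 the inhibitor gene NFKBIE was higher (0.59 ± 0.13, adjusted p = 0.0115), whereas NFKB2 (0.36, adjusted p = 0.0673) and CXCL3 (0.42, adjusted p = 0.0767) did not pass. Among all genes tested, 7% in SNB19 and 17.6% in K562 were higher at an adjusted p under 0.05 (edgeR). The medians were 0.18 in SNB19 and 0.39 in K562.

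Of 16 genes listed for lipid storage and fat cells, 6 had a row, 3 were tested in SNB19 and 2 in K562. In SNB19 none passed, with 1 at an unadjusted p under 0.05 (edgeR): the fatty acid transporter gene CD36 differed by -0.83 ± 0.35 on the log2 scale and did not pass (adjusted p = 0.131), CEBPD 0.19 (0.294) and CEBPA 0.38 (0.590). In K562 the lipid droplet coat gene PLIN2 was higher by 0.43 ± 0.12 (adjusted p = 0.0278), and CEBPD differed by 0.31 on the log2 scale and did not pass (adjusted p = 0.247). Among all genes tested in K562, 17.6% were higher at an adjusted p under 0.05 (edgeR).

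The inhibitory postsynapse list, chosen for INSYN2B, had a row for 15 of 28 genes. In SNB19, 3 were tested and none passed: the dystrophin gene DMD (-0.70 ± 0.32, adjusted p = 0.157), the GABA-A receptor gene GABRA3 (0.06, adjusted p = 0.797) and the dystroglycan gene DAG1 (0.01, adjusted p = 0.966, edgeR). In K562, where INSYN2B was near 0, 8 were tested, of which 4 were higher and 1 lower, each beyond a log2 fold change of 1, a rule that 9.37% of all K562 genes passed upward and 3.5% downward. DMD went from 1.46 to 75.0 CPM (5.67 ± 0.24, adjusted p = 1.97e-06), and the receptor subunit gene GABRG1 (1.76 ± 0.28, adjusted p = 0.00213) and the auxiliary subunit gene SHISA7 (1.41 ± 0.21, adjusted p = 0.00175) were higher. GABRA2 went from 216 to 36.4 CPM (-2.57 ± 0.18, adjusted p = 2.71e-05). The median was 0.010 in SNB19 and 1.53 in K562.

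Interferon-induced genes, which respond to double-stranded RNA among other triggers, were counted as well. Of 20 genes, 12 had a row. In SNB19, 11 were tested, none was higher and 2 were lower: IFI44L (9.28 to 2.99 CPM, -1.64 ± 0.37, adjusted p = 0.0192) and IFI44 (38.8 to 22.8 CPM, -0.76 ± 0.18, adjusted p = 0.0232), and the next, RIGI, differed by -0.25 on the log2 scale and did not pass (adjusted p = 0.248, edgeR). In K562, 8 were tested, of which 3 were higher and 1 lower. IFI6 (2.39 ± 0.36, adjusted p = 0.00169) and IFIH1 (3.02 ± 0.72, adjusted p = 0.0138, edgeR) were among the higher, and IRF9 (-0.88 ± 0.27, adjusted p = 0.0370) was lower. At an adjusted p under 0.05 (edgeR), 7% of all genes tested in SNB19 were higher and 7.4% lower. In K562 these shares were 17.6% and 13.6%. The medians were -0.11 in SNB19 and 0.29 in K562. The part of these genes in the members' levels was not tested.

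The mouse orthologs lie on mm9 at chr2:5058822-5151924 (Ccdc3), chr8:69221321-69230697 (Npy1r), chr11:34214822-34322640 (Insyn2b) and chr10:19654278-19862559 (Map3k5), all on the plus strand. Chd9 mRNA was lower with the deletion in each set of samples, as from 153 ± 1.27 to 24.9 ± 3.66 CPM in E15 brain (SD, n = 2 each) and from 73.2 ± 7.03 to 12.0 ± 2.41 CPM in lymphomas (SD, n = 3 each). The paper reports that the deleted allele still gives a shorter mRNA, from exons that encode no CHD9 domain. By edgeR, Chd9 itself did not pass in E15 liver (adjusted p = 0.0779), ESCs (0.0632) or Chd9+/- lymphomas (0.926).

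In E15 embryos the 4 orthologs fell into 2 pairs by organ. All 8 E15 libraries were scaled together for this comparison, which was tested in the Chd9+/+ embryos. Npy1r was at 15.1 and 15.5 CPM in Chd9+/+ brain and at 0.107 and 0.187 CPM in Chd9+/+ liver. Insyn2b was at 14.8 and 14.4 CPM in brain and at 0.251 and 0.150 CPM in liver. Both genes were higher in brain, with log2 differences of 6.68 ± 0.22 and 6.16 ± 0.20 (adjusted p = 3.39e-08 and 2.83e-08, edgeR).

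Ccdc3 and Map3k5 were higher in liver. Ccdc3 was at 6.85 and 7.21 CPM in Chd9+/+ brain and at 15.5 and 16.4 CPM in liver, a brain minus liver difference of -1.18 ± 0.12 on the log2 scale (adjusted p = 3.25e-05). Map3k5 was at 9.02 and 10.4 CPM in brain and at 22.8 and 30.0 CPM in liver, a difference of -1.45 ± 0.15 (adjusted p = 4.10e-05, edgeR). All 4 orthologs passed, but so did 60.2% of the 18359 genes tested between these organs. In whole organs, fewer cells of a type and less RNA per cell cannot be told apart.

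**Figure D3:**
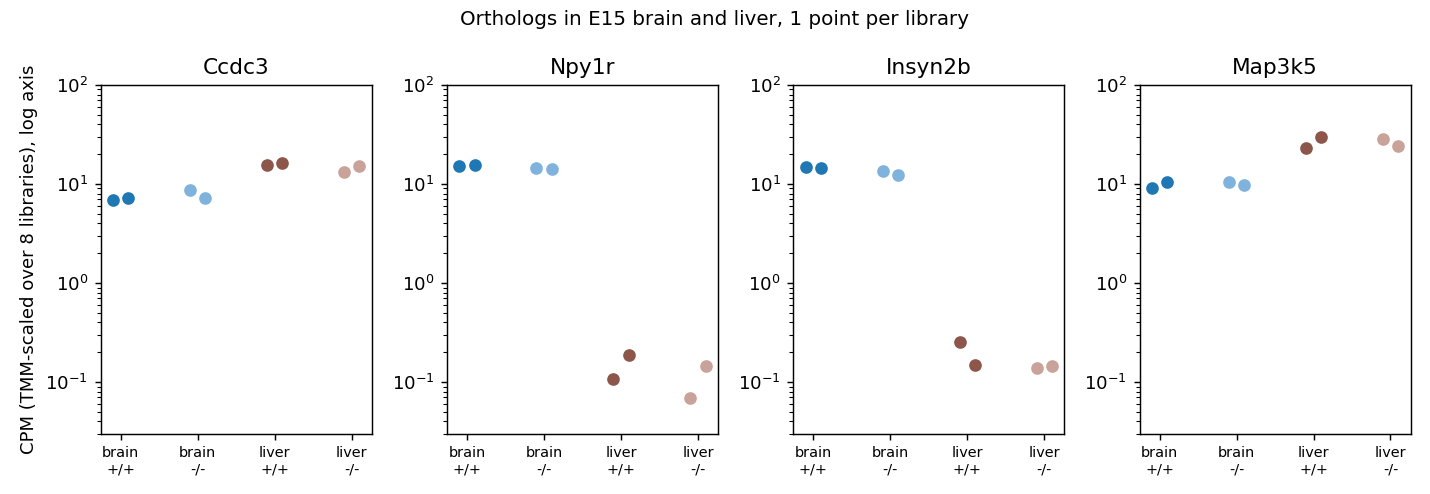
CPM (y axis, logarithmic) of the 4 orthologs in E15 brain and liver by Chd9 genotype (x axis), scaled over 8 libraries, with 1 point per library. Npy1r and Insyn2b lie above 12 CPM in brain and under 0.26 CPM in liver, Ccdc3 and Map3k5 are higher in liver, and Chd9+/+ and Chd9-/- points of an organ lie close together.

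By genotype, no ortholog changed past the threshold in E15 brain, where all 4 were tested. Scaled within brain, Ccdc3 was at 10.8 and 9.05 CPM in Chd9-/- and at 8.58 and 9.04 CPM in Chd9+/+ embryos, a log2 fold change of 0.17 (95% interval -0.09 to 0.43). Npy1r was at 18.2 and 17.7 against 18.9 and 19.4 CPM, a log2 fold change of -0.10 (-0.25 to 0.06). Insyn2b was at 17.0 and 15.4 against 18.6 and 18.0 CPM (-0.18, interval -0.36 to 0.0026), and Map3k5 at 13.0 and 12.3 against 11.3 and 13.0 CPM (0.06, -0.16 to 0.29). Both Chd9-/- embryos lay below both Chd9+/+ embryos for Npy1r and Insyn2b and above them for Ccdc3, whereas the Map3k5 levels overlapped. With 2 libraries per genotype such separations are frequent by chance, and their share over all genes was not counted. All 4 adjusted p-values were 0.999 (edgeR).

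In E15 liver, Ccdc3 was at 10.5 and 12.1 CPM in Chd9-/- and at 12.3 and 13.2 CPM in Chd9+/+ embryos (log2 fold change -0.17, 95% interval -0.47 to 0.12). Both Chd9-/- livers were lower, which is again frequent by chance with so few libraries. Map3k5 was at 23.0 and 19.2 against 18.2 and 24.1 CPM (-0.01, -0.44 to 0.43), with overlapping groups. Npy1r and Insyn2b had 2 to 7 counts per liver library and were not tested. Of the 17192 genes tested in brain, 8 (0.0465%) were called between the genotypes, and of the 15515 in liver, 5 (0.0322%). Embryos of different genotype also differed in sex, as described below, so these calls cannot be assigned to genotype alone. Whether the genotype effect differed between brain and liver was tested as an interaction, in which no ortholog had an unadjusted p under 0.05 and 0% of genes were called by edgeR (644 of 18359 at an unadjusted p under 0.05, and 5 called by DESeq2).

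Other properties moved with genotype in the E15 and ESC samples. The summed counts of 4 Y-linked genes were 6260 to 7992 in the Chd9+/+ and 3 to 7 in the Chd9-/- E15 libraries, so that embryo sex and genotype cannot be told apart there. In ESCs the sums were 2 to 11 in Chd9+/+ and 5981 to 7784 in Chd9-/- lines, and sex and genotype cannot be told apart there either. In lymphomas the sums were 2, 0 and 3586 in Chd9+/+, 1, 2683 and 3219 in Chd9+/-, and 1, 2 and 1 in Chd9-/- tumours. Sex was thus not balanced between the tumour genotypes. The E15 labels also give the same embryo numbers to the Chd9-/- livers and to the Chd9+/+ brains. Their Y-linked sums were 3 to 4 and 7971 to 7992, so these organs were not of the same embryos. The tests between brain and liver had no term for embryo and treated the libraries as independent.

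In MEFs, Npy1r was at 5.11, 3.60, 4.44 and 3.98 CPM in Chd9-/- lines against 3.34, 4.16 and 3.74 CPM in Chd9+/+ lines. Ccdc3 was at 2.08, 3.47, 1.69 and 1.81 CPM against 1.36, 2.70 and 1.92 CPM, and Map3k5 at 7.76, 5.18, 11.8 and 4.99 CPM against 8.72, 5.59 and 7.41 CPM. The genotypes overlapped for each gene. The log2 fold changes were 0.19 (95% interval -0.20 to 0.59), 0.19 (-0.61 to 0.99) and 0.04 (-0.75 to 0.82), in that order, and all adjusted p-values were 1.00 (edgeR). Insyn2b had 0 to 29 counts and was not tested. The labels carry a letter, A for 3 of the Chd9-/- lines and B for the other Chd9-/- line and all Chd9+/+ lines, and with this letter as a term the log2 fold changes were -0.14 for Ccdc3 and -0.54 for Map3k5, with adjusted p-values of 1.00. Of the 15218 genes tested, 2 (0.0131%) were called.

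In ESCs only Map3k5 was well expressed. It was at 17.3, 20.7 and 10.2 CPM in Chd9-/- and at 30.6, 47.2 and 10.9 CPM in Chd9+/+ lines, which overlap, with a log2 fold change of -0.88 (95% interval -2.07 to 0.31, adjusted p = 0.546). Insyn2b had 1 to 28 counts per line (-0.10, -2.44 to 2.24, adjusted p = 0.982, edgeR). Ccdc3 with 0 to 11 and Npy1r with 0 to 7 counts were not tested. Of the 15510 genes tested, 23 (0.148%) were called, and 12 with the replicate number of the lines as a block.

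In EμMyc lymphomas, Map3k5 was the ortholog with the widest separation. It was at 28.1, 31.4 and 24.9 CPM in Chd9+/+, at 24.2, 19.7 and 6.70 CPM in Chd9+/- and at 5.17, 7.45 and 15.9 CPM in Chd9-/- tumours. Every tumour with a deleted allele lay below the lowest Chd9+/+ tumour, while Chd9+/- and Chd9-/- overlapped. The log2 fold change was -1.56 (95% interval -2.75 to -0.38) for Chd9-/-, with an unadjusted p of 0.0152 and an adjusted p of 1.00, and -0.74 (-1.90 to 0.42, adjusted p = 0.926, edgeR) for Chd9+/-. This direction is opposite to that of MAP3K5 in K562 and did not pass the adjustment over 13440 genes. For Chd9-/-, 520 of these genes (3.87%) had an unadjusted p under 0.05, and Map3k5 ranked 115 by p-value (edgeR). The share of genes that separate the tumours in the same way was not counted. Sex was not balanced between these genotypes, and its part in the Map3k5 levels was not tested.

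Ccdc3 was low in lymphomas, at 0.947, 0.388 and 0.835 CPM in Chd9+/+, 1.52, 1.64 and 1.78 CPM in Chd9+/- and 0.259, 1.40 and 3.36 CPM in Chd9-/- tumours. The Chd9+/- tumours lay above the Chd9+/+ tumours, and the Chd9-/- tumours spread around them. The log2 fold changes were 1.21 (95% interval -0.58 to 2.99, adjusted p = 1.00) and 1.18 (-0.61 to 2.97, adjusted p = 0.926) for Chd9-/- and Chd9+/-, and the former was 0.24 without Chd9-/- tumour 3. Npy1r had 5 to 33 counts, with log2 fold changes of 0.0011 (-1.96 to 1.96) and 0.54 (-1.32 to 2.40). Insyn2b had 1 count in 1 of 9 tumours. Of all genes tested, 1 (0.00744%) was called for Chd9-/- and 0 (0%) for Chd9+/- by edgeR, beside 602 at an unadjusted p under 0.05 and 14 called by DESeq2 for Chd9+/-.

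**Figure D4:**
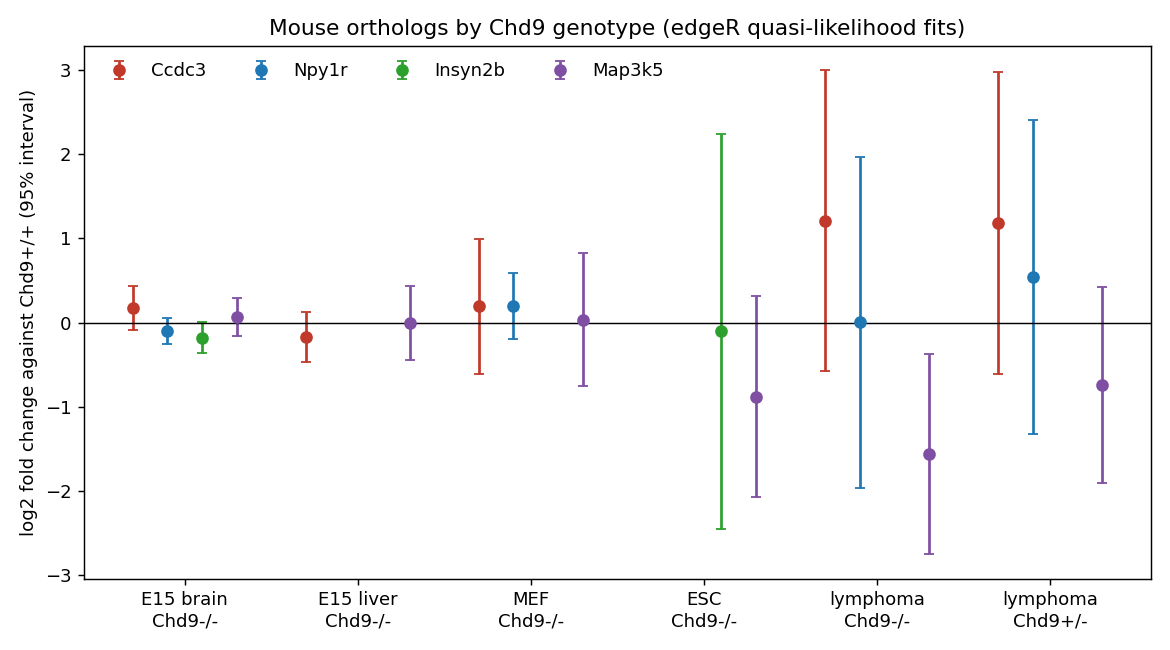
log2 fold change against Chd9+/+ (y axis, points) with 95% intervals (lines) of the orthologs that passed the filter on low counts, for 6 genotype comparisons (x axis). The intervals are narrow in E15 brain, where they lie within -0.36 and 0.43, and wide in ESCs and lymphomas, and the interval of Map3k5 in Chd9-/- lymphomas lies below 0.

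Over the 6 genotype comparisons the orthologs were tested 17 times, of which 0 were called by edgeR or by DESeq2 and 1 had an unadjusted p under 0.05, Map3k5 in Chd9-/- lymphomas. In E15 liver, ESCs and Chd9+/- lymphomas Chd9 itself missed the adjusted threshold in edgeR, so the lack of a call there does not show that a gene was unchanged. The levels across mouse samples were scaled separately for each experiment. Within that limit, Map3k5 was detected in all of them, Ccdc3 was highest in the E15 organs, and Npy1r and Insyn2b in E15 brain, with Npy1r at a lower level in MEFs.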

How the data were processed

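RNA was sequenced from 42 samples. The authors aligned the reads with TopHat (2.1 in the submitters' processing notes) and counted them per Ensembl gene with HTSeq 0.5.3, on hg37 for the human lines, mm10 for E15 organs and lymphomas and mm9 for MEFs and ESCs. The deposited values are raw counts. 0 columns lay outside the sample list. In R 4.3.3, genes were filtered with filterByExpr and libraries scaled with TMM in edgeR 4.0.16. Differences were tested with glmQLFTest and Benjamini-Hochberg adjustment over every gene of a fit. Calls required an adjusted p under 0.05 and a log2 fold change beyond 1. Both CHD9 hairpins formed 1 group against shRNA-Luc, the 9 lymphomas 1 fit, and E15 organs separate fits. Standard errors are the log2 fold change over the square root of F. Fits were tested on simulated data. DESeq2 1.42.0, other scaling and filters, single hairpins, batch terms, replicate blocks and leaving out each library were the alternatives.

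The members and gene lists were chosen with earlier results of these data known. Named were the members, CHD9, the 3 genes of each list with the smallest p in each line, every called list gene, paralogs and neighbours, and the 3 genes most correlated with each member (log2 CPM with 0.5 added). Other list genes are given where a count or comparison turns on them and were then chosen after their values were seen. A few genes that meet these criteria are left out here. Symbols and overlaps came from GENCODE v29 and vM1, which is on mm9. Human positions are not printed, since that annotation is of another build than hg37. Same-numbered ESC lines deviated together (residual correlations of 0.473, 0.256 and 0.409), as shared starting numbers in 2 of the 3 label pairs also show, and the blocked fit changed no call of an ortholog there.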

Additional observations from a re-analysis of the deposited data

Results flagged for a closer look

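In MEFs, the library of Chd9-/- line 3 stood apart from the other Chd9-/- lines for Insyn2b, with 0.550 CPM (14 counts) against 0.0890 to 0.162 CPM (4 and 5 counts). Its gap to the next line was 84.2% of the range of the 4 lines. A Chd9+/+ line had a higher level still, 0.940 CPM from 29 counts. Of the 10 groups examined in this way, for the orthologs in Chd9-/- MEFs and the members in the knockdown libraries of both human lines, this was the only one to stand out, and chance alone marks about 1 in 20 such groups.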

How the results depend on the processing

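Of 285 recomputed values for 22 gene and comparison pairs, 253 kept their direction and their side of the threshold (or, in SNB19, stayed within the replicate spread). No alternative moved a member across both thresholds that define a call in K562 or the mouse experiments. In SNB19, CCDC3 and MAP3K5 moved by less than the spread between replicates in every alternative. NPY1R depended on the hairpin, with log2 fold changes of 2.01 for shRNA-CHD9#1 alone and 1.43 for shRNA-CHD9#2 alone. With each library left out in turn, NPY1R ranged from 1.65 to 1.88 and INSYN2B from 1.31 to 1.48, the latter without shRNA-Luc replicate 1. MAP3K5 in K562 ranged from 0.57 to 0.71 in the same way, and its adjusted p over its alternatives from 5.14e-06 to 0.0635, the latter without shRNA-Luc replicate 2 (edgeR). With a replicate block, the K562 log2 fold change of MAP3K5 was 0.64 (adjusted p = 0.0130) and those in SNB19 were 3.38, 1.75, 1.39 and 1.25 for CCDC3, NPY1R, INSYN2B and MAP3K5, and the block changed no other call of a member. Outside ESCs the shared numbers did not pair the samples (residual correlations of same-numbered libraries from -0.543 to 0.347), and the block gave 303 calls against 348 in SNB19 and 1066 against 1180 in K562.

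Direction changed only for effects of 0.19 or less in size, none of which passed a threshold. Map3k5 in E15 liver took the values 0.0011 with DESeq2, 0.0035 without a filter, 0.0015 with the replicate block and 0.0015 with a crossed block, and -0.19 to 0.21 with a library left out, and in E15 brain -0.036 to 0.16. In MEFs, the label letter as a batch term gave -0.14 for Ccdc3 and -0.54 for Map3k5, and leaving out libraries gave -0.098 to 0.48 and -0.28 to 0.19. Insyn2b in ESCs was 0.10 with the replicate block and 0.58 with the label's starting number as batch, and -0.73 to 1.27 with lines left out. Npy1r in Chd9-/- lymphomas was -0.0065 with DESeq2, -0.00053 with DESeq2 size factors, -0.0029 without a filter, -0.17 with the block and -0.017 with 2 genotypes in the fit, and -0.95 to 0.61 with tumours left out. The causes were not tested. Crossing the liver numbers, tried after seeing that same-numbered livers deviated oppositely, called 44 genes against 3 with the block and 5 without. DESeq2 called 510 genes in ESCs against 23, 17 against 8 in E15 brain, 12 against 5 in E15 liver and 30 against 1 in Chd9-/- lymphomas. Depth left Ccdc3 (0 to 11 counts) and Npy1r (0 to 7) in ESCs under the filter. The biological coefficient of variation estimated by edgeR was 0.352 in ESCs and 0.463 in lymphomas, beside 0.0588 in E15 brain.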
